A study of Mus musculus with 10 samples.

Results

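Triglyceride synthesis in the liver was followed through 9 genes of its enzymatic steps, Gpam, Agpat2, Agpat3, Lpin1, Lpin2, Lpin3, Dgat1, Dgat2 and Mogat1, which were found by gene symbol among 41388 genes listed for every library. All 9 were found, and all 9 passed the filter of more than 1 CPM (counts scaled to library total) in at least 1 library, which left 13448 genes for testing. Liver RNA was sequenced from 10 C57B/6J mice of 12 wk, with 1 library for each mouse. The 2 WT Refed mice had a 22 h fast followed by 2 h of refeeding, and the 3 WT Fasting mice and 5 NAMPT LKO Fasting mice had a 24 h fast, as the labels give it; the text of the study describes a shorter fast and fed controls, so the WT Refed group is named here by its label. All were littermates fasted on aspen bedding. WT mice carried NAMPT fl/fl alleles, in which the gene is flanked by recombination sites but intact, without cre, and NAMPT LKO mice had lost the gene in hepatocytes through Albumin-cre, so that the other cells of the liver kept it. WT Fasting and WT Refed mice differed in feeding, NAMPT LKO Fasting and WT Fasting mice in genotype, and NAMPT LKO Fasting and WT Refed mice in both.

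Hepatocytes build triglyceride on a glycerol phosphate backbone. GPAM and related enzymes attach the first fatty acid, AGPAT enzymes attach the next and give phosphatidic acid, lipins remove the phosphate to leave diacylglycerol, and DGAT1 or DGAT2 adds the last fatty acid. MOGAT1 reaches diacylglycerol by another route, from monoacylglycerol. In the liver the product is stored in lipid droplets or secreted in lipoproteins, and fasting brings in fatty acids released by adipose tissue. Lipin 1 also acts in the nucleus with PGC-1alpha and PPARalpha on genes of fatty acid oxidation.

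Nampt, the deleted gene and the rate-limiting enzyme of NAD+ salvage, was checked first. After normalization by edgeR's TMM method, which sets libraries on one scale under the assumption that most genes do not change, Nampt was at 77.0 and 66.9 CPM in WT Refed livers, at 62.2, 72.4 and 139 CPM in WT Fasting livers, and at 12.0, 13.9, 11.6, 12.4 and 15.1 CPM in NAMPT LKO Fasting livers. Each of the 5 NAMPT LKO values was under every WT value, with a log2 fold change of -2.81 against WT Fasting livers (SE, the standard error, 0.22, edgeR adjusted p = 0.00103). Without WT Fasting mouse 3 it was -2.36. Here and throughout, edgeR's adjusted p is that of its quasi-likelihood F test over all 13448 genes, and genes at or under 0.05 are called. Total counts ran from 30603080 to 43434139, a depth at which 8 of the 9 genes had at least 119 counts in every library and Mogat1 had 29 to 71. NAMPT LKO mouse 5 stood apart, with 21.1% of its counts on mitochondrial genes against 7.42% to 12.9% in the other 9 livers. Its log2 deviation from the mean of the other 9 livers had a rank correlation of -0.56 with the GC content of the transcript, across 13373 genes. The hepatocyte markers fixed for the check (Alb, Apoa1, Ttr, Tat, Cps1 and Ass1) summed to 60485 to 107256 CPM in every liver. Adipocyte markers, which matter here because fat cells are rich in the same enzymes, summed to 6.79 to 7.06 CPM in WT Refed, 7.54 to 11.6 CPM in WT Fasting and 7.46 to 15.2 CPM in NAMPT LKO livers. Most of this was Fabp4 (6.04 to 14.4 CPM), with Cfd at 0.19 to 1.68 CPM, while Adipoq, Lep, Retn and Plin1 had 0 to 9 counts in any liver.

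Lpin2, which encodes a phosphatidic acid phosphatase abundant in liver, changed with feeding. It lies on the plus strand of GRCm38 at chr17:71182560-71249817, in 24 merged exon blocks of 12233 bases. Lpin2 was at 131 and 91.7 CPM in WT Refed livers, at 385, 295 and 408 CPM in WT Fasting livers, and at 341, 446, 373, 206 and 401 CPM in NAMPT LKO Fasting livers. Each of the 8 fasted livers lay above both WT Refed livers, and the WT and NAMPT LKO fasted livers overlapped. In WT Fasting livers Lpin2 was 3.26-fold higher than in WT Refed livers, a log2 fold change of 1.70 with a 95% confidence interval from 1.04 to 2.37 (SE 0.30, edgeR adjusted p = 0.00834). In NAMPT LKO Fasting livers it was 3.17-fold higher than in WT Refed livers, with a log2 fold change of 1.67 (SE 0.29, edgeR adjusted p = 0.00483). Both values use the same 2 WT Refed livers. Without WT Refed mouse 2 the log2 fold changes were 1.46 and 1.44, and the adjusted p from edgeR rose to 0.129 and 0.102 with 1 WT Refed liver left.

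Lpin1, the lipin that fasting hormones are known to induce in liver, had a fold change as large as that of Lpin2 but varied far more between mice. Its exons, 22 blocks of 5725 bases, lie on the minus strand at chr12:16535669-16589770. Lpin1 was at 102 and 96.0 CPM in WT Refed livers and at 334, 213 and 502 CPM in WT Fasting livers. In NAMPT LKO Fasting livers it was at 178, 471, 507, 47.8 and 549 CPM. All 3 WT Fasting livers were above both WT Refed livers, whereas NAMPT LKO mouse 4 had less Lpin1 than any other of the 10 livers, the refed ones included. The log2 fold change of WT Fasting against WT Refed livers was 1.82 with an interval from 0.06 to 3.59, which did not pass the adjusted threshold (SE 0.80, edgeR adjusted p = 0.206). It was 1.83 in NAMPT LKO Fasting against WT Refed livers (SE 0.76, edgeR adjusted p = 0.156). Without mouse 4 the log2 fold change was 1.82 for WT Fasting (edgeR adjusted p = 0.0508) and 2.11 for NAMPT LKO Fasting against WT Refed livers (edgeR adjusted p = 0.0236).

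Lpin3, the remaining phosphatase of the family, stayed low. It lies on the plus strand at chr2:160880670-160906002 and was at 4.98 and 3.82 CPM in WT Refed, 3.90, 4.50 and 4.83 CPM in WT Fasting and 3.81, 4.43, 4.76, 3.86 and 3.68 CPM in NAMPT LKO Fasting livers. The 3 groups overlapped throughout. The log2 fold change of WT Fasting against WT Refed livers was 0.0030 with an interval from -0.44 to 0.45, and its sign turned under 7 other settings and in 5 of 10 fits with a library left out.

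**Figure D1:**
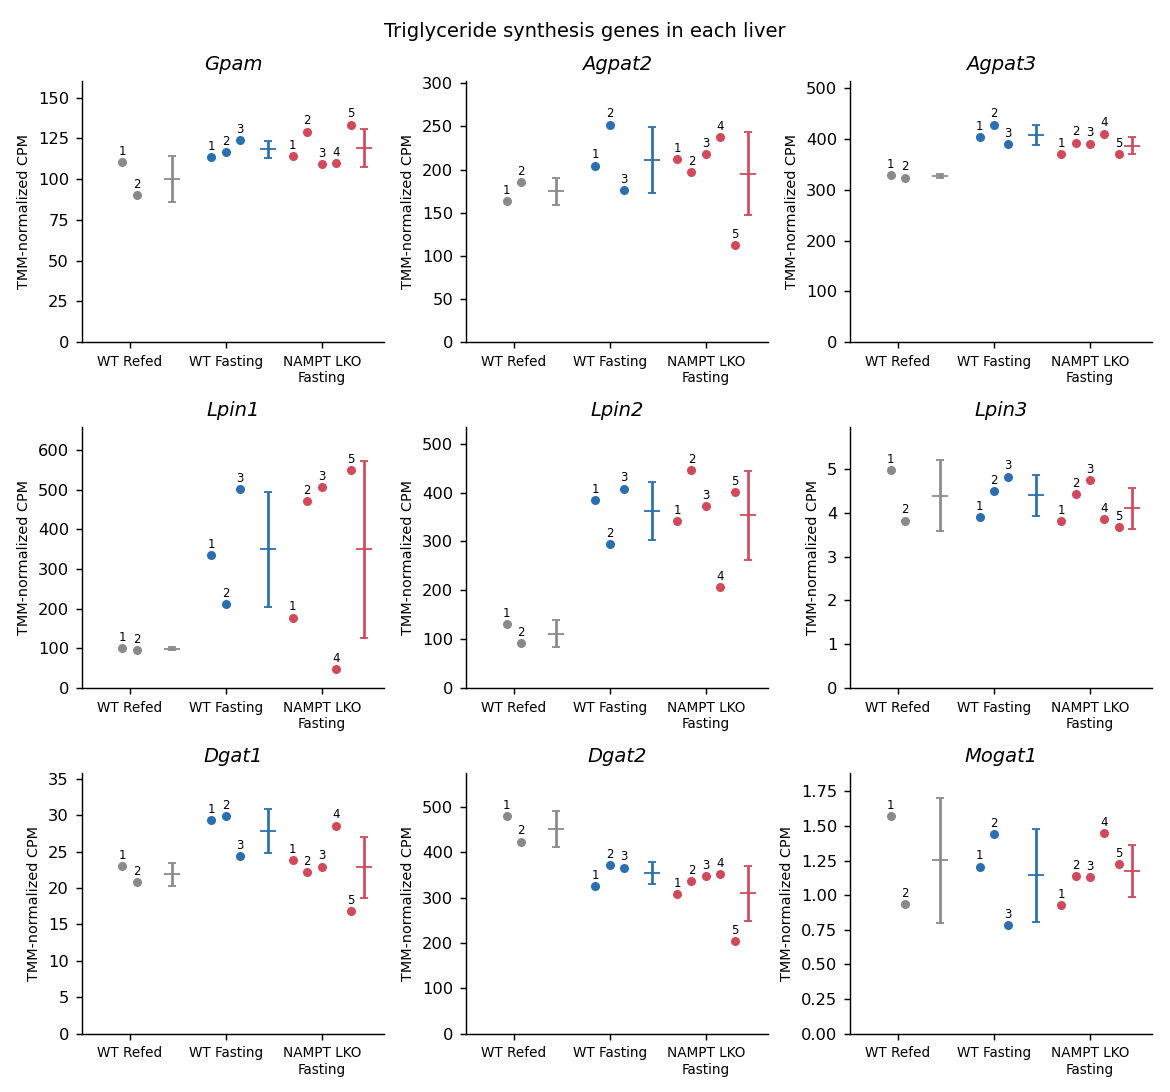
TMM-normalized CPM of each of the 9 genes (vertical axes, linear and starting at 0) in WT Refed (n = 2), WT Fasting (n = 3) and NAMPT LKO Fasting (n = 5) livers. Points are single livers with their replicate number, and the bars beside them are mean ± SD. Lpin1 and Lpin2 are higher in all WT Fasting than in all WT Refed livers, and NAMPT LKO mouse 4 is the lowest fasted liver for both.

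The start regions of Lpin1 and Lpin2 are shown because their levels went together across fasted livers, although Lpin2 alone was called. The table of RefSeq promoters on GRCm38.p6 held an entry for 7 of the 9 genes, and the 250 bases before each annotated start were searched on both strands for CACGTG (the E-box), TGACGTCA (the full cAMP response element), TGTTTAC (a forkhead motif), CCAAT (the CCAAT box), the sterol response element of the LDL receptor gene and the direct repeat with a spacer of 1 base that PPARalpha reads. Capitals mark a match. Lpin1 had 1 RefSeq start, on the minus strand at base 16610966, which lies upstream of the counted exons and their 5′ end at base 16589770. The region before the RefSeq start holds none of these motifs, and the bases before the counted exons were not searched. Of the 3 RefSeq starts of Lpin2, all on the plus strand, the middle one (chr17:71183728-71183977, not shown) has no match, the most 5′ has CACGTG from 9 to 4 bases before the start, and the most 3′ has the forkhead letters, read as GTAAACA on the plus strand, from 138 to 132 bases before the start, along with CCAAT read 3 times on the other strand.
Lpin1, chr12:16610967-16611216: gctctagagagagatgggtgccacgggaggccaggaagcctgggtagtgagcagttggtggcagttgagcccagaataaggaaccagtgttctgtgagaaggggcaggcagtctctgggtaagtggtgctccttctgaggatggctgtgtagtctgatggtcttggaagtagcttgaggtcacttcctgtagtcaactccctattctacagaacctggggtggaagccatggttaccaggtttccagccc
Lpin2, most 5′ start, chr17:71183282-71183531: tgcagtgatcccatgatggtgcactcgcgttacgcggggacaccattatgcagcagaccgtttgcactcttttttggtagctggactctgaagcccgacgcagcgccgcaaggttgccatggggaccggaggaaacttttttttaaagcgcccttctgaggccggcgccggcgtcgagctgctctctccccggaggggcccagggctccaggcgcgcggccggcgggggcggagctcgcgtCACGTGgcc
Lpin2, most 3′ start, chr17:71204404-71204653: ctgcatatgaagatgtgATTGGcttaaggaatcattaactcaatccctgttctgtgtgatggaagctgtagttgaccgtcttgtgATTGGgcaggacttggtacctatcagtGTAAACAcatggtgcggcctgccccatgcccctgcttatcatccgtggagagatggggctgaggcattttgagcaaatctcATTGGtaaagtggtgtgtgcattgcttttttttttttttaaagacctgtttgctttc
Of the 32851 promoter regions of this length in the table, 6.02% hold CACGTG, 3.17% hold TGTTTAC and 33.8% hold CCAAT, while 1.55% hold TGACGTCA, 0.0731% hold that sterol response element and 0.0335% the direct repeat on either strand. The other match among the 7 genes was a CCAAT box read on the other strand, 74 to 70 bases before one of the Gpam starts. These matches describe the letters only, and the counts per gene do not show which start was used.

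Across livers, Lpin1 and Lpin2 were low and high in largely the same mice. Pearson's correlation of their log2 levels was 0.95 over the 8 fasted livers (Spearman 0.69) and 0.79 over all 10, given as a description with no test. Whether livers shared a batch of library preparation is not given by the labels. NAMPT LKO mouse 4 was the lowest fasted liver for both genes. Within NAMPT LKO livers the coefficient of variation of Lpin1 was 63.8%, at the 99.1 percentile of 9135 tested genes, with or without a symbol, that average 5 CPM or more, and within WT Fasting livers it was 41.6%, at the 95.9 percentile. The corresponding values of Lpin2 were 25.7% and 16.5%, at the 83.6 and 78.6 percentiles.

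**Figure D2:**
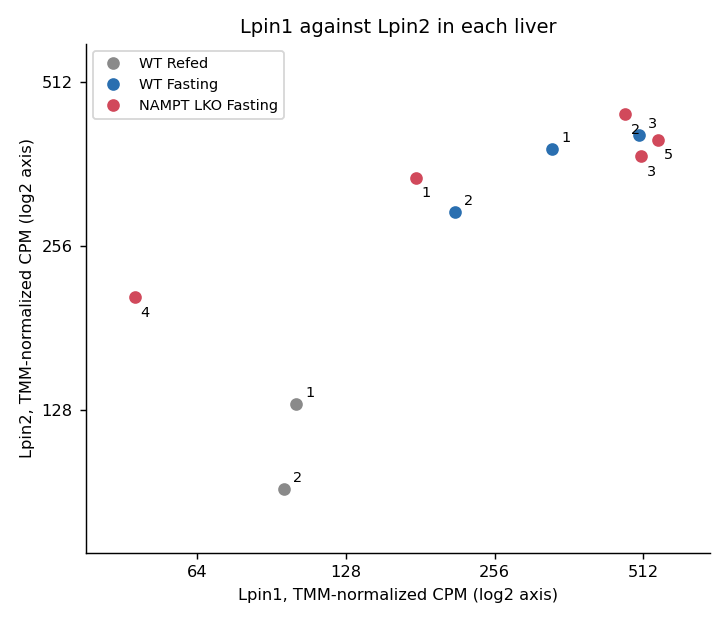
Lpin1 (horizontal axis) against Lpin2 (vertical axis), both TMM-normalized CPM on log2 axes, with 1 point for each liver, colored by group and numbered by replicate. NAMPT LKO mouse 4 has the lowest Lpin1 of all livers (47.8 CPM) with 206 CPM of Lpin2, above both WT Refed livers.

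The genes whose log2 levels followed Lpin2 most closely over the 10 livers, among 9110 other tested genes with a symbol that average 5 CPM or more, were Rgs16 (r = 0.97), a regulator of G protein signaling, Ccng2 (r = 0.96), which encodes cyclin G2, and Dnmbp (r = 0.96), which encodes a guanine nucleotide exchange factor. Rgs16 was at 1.22 and 0.71 CPM in WT Refed, 20.3, 23.5 and 54.8 CPM in WT Fasting and 38.7, 43.2, 32.0, 11.4 and 42.8 CPM in NAMPT LKO Fasting livers. Ccng2 was at 5.02 and 3.71 CPM in WT Refed, 24.0, 17.2 and 29.0 CPM in WT Fasting and 15.6, 18.2, 19.3, 12.1 and 21.0 CPM in NAMPT LKO Fasting livers. In both of these genes, as in Lpin2, every fasted liver was above both refed livers and NAMPT LKO mouse 4 was the lowest fasted liver. For Lpin1 the closest genes, looked up after its values were seen, were Akap13 (r = 0.98), Tat (r = 0.92) and Slc35e2 (r = 0.91). Tat, tyrosine aminotransferase, an enzyme of amino acid breakdown that glucocorticoids induce, was at 1032 and 1234 CPM in WT Refed, 2426, 1912 and 2300 CPM in WT Fasting and 1303, 2016, 1911, 1008 and 2429 CPM in NAMPT LKO Fasting livers, with mouse 4 again the lowest of all. These correlations were the highest of many over 10 livers and include the difference between refed and fasted mice.

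Gpam, the mitochondrial glycerol phosphate acyltransferase, lies on the minus strand at chr19:55069734-55099451. It was at 110 and 89.9 CPM in WT Refed, 114, 117 and 124 CPM in WT Fasting and 114, 129, 109, 110 and 133 CPM in NAMPT LKO Fasting livers. The WT Fasting livers lay above both WT Refed livers by a small margin, and NAMPT LKO livers overlapped both WT groups. The log2 fold change of WT Fasting against WT Refed livers was 0.24 with an interval from -0.06 to 0.54 (edgeR adjusted p = 0.331).

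Agpat2, the acylglycerol phosphate acyltransferase whose loss in people causes lipodystrophy, lies on the minus strand at chr2:26593057-26604417. It was at 164 and 186 CPM in WT Refed, 204, 252 and 176 CPM in WT Fasting and 212, 197, 218, 237 and 112 CPM in NAMPT LKO Fasting livers. The groups overlapped, and NAMPT LKO mouse 5 was the lowest of the 10 livers. Agpat3, a related enzyme that acylates several lysophospholipids, lies on the minus strand at chr10:78269178-78352489 and was at 329 and 324 CPM in WT Refed livers, 403, 428 and 389 CPM in WT Fasting livers and 370, 393, 391, 410 and 371 CPM in NAMPT LKO Fasting livers. Every fasted liver of either genotype had more Agpat3 than both WT Refed livers. The log2 fold change against WT Refed livers was 0.32 in WT Fasting livers (interval 0.07 to 0.56, edgeR adjusted p = 0.118) and 0.25 in NAMPT LKO Fasting livers (edgeR adjusted p = 0.159). Neither passed the threshold in the quasi-likelihood test, and both passed it with DESeq2 and with limma's voomWithQualityWeights.

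Dgat2, whose enzyme is known to use newly made fatty acids in liver, had lower means in fasted livers but was not called in the main test. It lies on the minus strand at chr7:99153663-99182713. Dgat2 was at 480 and 424 CPM in WT Refed livers, at 326, 371 and 366 CPM in WT Fasting livers and at 307, 336, 347, 351 and 205 CPM in NAMPT LKO Fasting livers. All 8 fasted livers lay below both WT Refed livers. The log2 fold change was -0.35 in WT Fasting livers (SE 0.21, interval -0.80 to 0.10, edgeR adjusted p = 0.346) and -0.55 in NAMPT LKO Fasting livers (SE 0.18, interval -0.95 to -0.14, edgeR adjusted p = 0.0839). Without NAMPT LKO mouse 5, the lowest liver, Dgat2 was called lower in both comparisons, at adjusted p of 0.0450 and 0.0129 from edgeR. No other fit with a library left out called it. With all 10 libraries kept, Dgat2 was called lower in NAMPT LKO Fasting against WT Refed livers by DESeq2 (adjusted p = 0.0357), by voomWithQualityWeights (adjusted p = 0.00473, limma) and with the GC trend removed (edgeR adjusted p = 0.0174), and in WT Fasting against WT Refed livers by voomWithQualityWeights (adjusted p = 0.0378, limma). These were 3 and 1 of 10 alternative settings, and the remaining settings did not call it.

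Dgat1, the unrelated enzyme that catalyzes the same reaction, lies on the minus strand at chr15:76502015-76511951. It was at 23.0 and 20.8 CPM in WT Refed, 29.3, 29.9 and 24.3 CPM in WT Fasting and 23.8, 22.2, 22.9, 28.6 and 16.8 CPM in NAMPT LKO Fasting livers. WT Fasting livers were above both WT Refed livers, by a log2 fold change of 0.35 that did not pass the test (interval -0.08 to 0.77, edgeR adjusted p = 0.317). Mogat1, a monoacylglycerol acyltransferase that is scarce in healthy mouse liver, lies on the plus strand at chr1:78510991-78538173 and stayed between 0.78 and 1.57 CPM in all livers, with the groups overlapping. Of its exonic bases, 200 also belong to BC035947 on the opposite strand, and 64 of Agpat2 belong to Egfl7; whether counting used strand is not given in the sources used here.

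**Figure D3:**
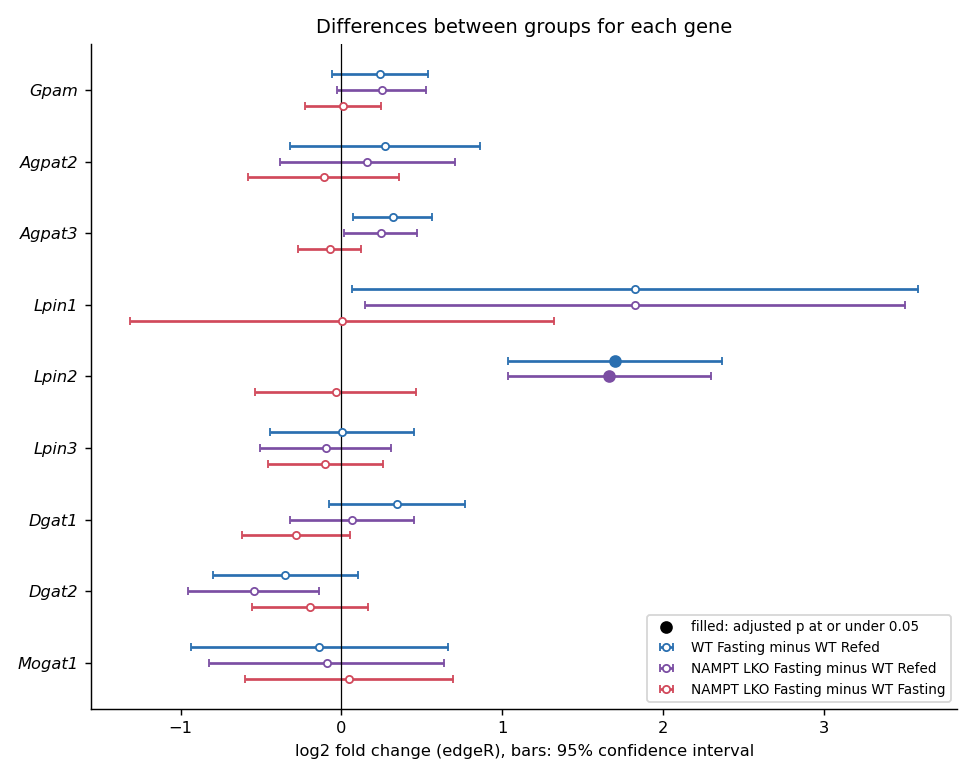
Fitted log2 fold change (horizontal axis) of each gene in 3 comparisons, with bars for the 95% confidence interval from edgeR and filled points for an adjusted p at or under 0.05. Lpin2 is the filled gene in both comparisons with WT Refed livers (1.70 and 1.67), and no point is filled in NAMPT LKO Fasting against WT Fasting livers.

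Counted over the 9 genes, 1, Lpin2, was called between WT Fasting and WT Refed livers, where 7.03% of all tested genes were called. At an unadjusted p under 0.05 there were 3 (Lpin1, Lpin2 and Agpat3), beside 22.3% of all genes. In 6 of the 9 the WT groups did not overlap, 5 higher and 1 lower in fasting, beside 49.6% of all genes tested. The count of 1 was 3 without NAMPT LKO mouse 5 (Agpat3, Lpin2 and Dgat2), where calls over all genes went from 946 to 2228 of 13375, and 0 without WT Refed mouse 2, where they went to 106 of 13415. The median log2 fold change of the 9 was 0.27, that of all tested genes 0.04. Against the same WT Refed livers, NAMPT LKO Fasting livers gave 1 gene called, again Lpin2, beside 11.2% of all genes. It also became 3 without NAMPT LKO mouse 5, where 2836 of 13375 genes were called in place of 1510, and 0 without WT Refed mouse 2, where 207 of 13415 were. The groups did not overlap in 3 of the 9, Agpat3 and Lpin2 higher and Dgat2 lower, beside 33.5% of all genes.

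Between NAMPT LKO and WT livers of fasted mice, Nampt was the 1 gene called among all 13448, so the absence of calls among the 9 is that of the transcriptome and not particular to them. Of the 9, 0 were called by edgeR's quasi-likelihood test and 0 had an unadjusted p under 0.05 in it. Over all genes that test called 0.00744%, which is Nampt alone, and 6.04% had an unadjusted p under 0.05. Of the 9, 0 were also called by edgeR's exact test, DESeq2 or voomWithQualityWeights. The exact test and DESeq2 called more genes over the transcriptome, as given with the other settings below. The groups overlapped in all 9, beside 3.98% of all genes without overlap. The median log2 fold change was -0.07, and single values ran from -0.28 for Dgat1 to 0.05 for Mogat1. The intervals show what could have been missed. For Gpam it ran from -0.23 to 0.25, for Agpat3 from -0.27 to 0.12 and for Lpin2 from -0.54 to 0.46, while for Lpin1 it ran from -1.31 to 1.32 and thus left room for more than a 2-fold change either way. The lowest adjusted p was 0.836, for Dgat1 (interval -0.62 to 0.05, edgeR's quasi-likelihood test). WT Fasting livers enter this comparison and the comparison with WT Refed livers alike.

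A pair of NAMPT LKO livers set much of the spread in their group, in different genes. Mouse 4 was the lowest of its group for Lpin1 and Lpin2 and the highest for Agpat2, Agpat3, Dgat1, Dgat2 and Mogat1. Mouse 5 was the lowest for Agpat2, Dgat1, Dgat2 and Lpin3 and the highest for Gpam and Lpin1. Transcript GC content is given beside this because the deviations of mouse 5 followed it across genes; its part in these values was not tested. The 4 genes in which mouse 5 was lowest have 58.0%, 56.5%, 56.3% and 55.7% GC in that order, above the median of 49.6% over tested genes. Deviations are from the mean of all other livers, refed ones included. Agpat3, at 54.2% GC, deviated by -0.04 on the log2 scale in mouse 5. Nearer the median, Lpin1 (50.1% GC) deviated by 1.41, Lpin2 (49.2%) by 0.59, Gpam (48.6%) by 0.25 and Mogat1 (47.9%) by 0.09. For Lpin1 and Lpin2 these values include the difference between refed and fasted mice. Lpin2 was at 401 CPM in mouse 5, within the 206 to 446 CPM of NAMPT LKO livers. With each library's GC trend removed, a setting chosen after seeing the data, NAMPT LKO against WT Fasting livers gave 0 of the 9 genes called by edgeR. Bile duct markers had higher means in NAMPT LKO than in WT Fasting livers for all 5 (Krt7, Krt19, Epcam, Sox9 and Spp1), 4 of them without overlap, 0 called, and a sum of 33.6 to 53.8 CPM against 15.0 to 22.0 CPM in WT Fasting livers. Stellate cell markers had higher means for 6 of 6, 1 without overlap (Col1a1, at 1.98 to 8.48 CPM against 1.23 to 1.65 CPM), 0 called, and a sum of 214 to 286 CPM against 175 to 227 CPM. Hepatocyte markers had higher means for 0 of 6 (median log2 fold change -0.18), 0 called. Between NAMPT LKO and WT Fasting livers, 3.98% of all tested genes did not overlap. The part of these lists in the values above was not tested. Macrophage markers summed to 154 to 301 CPM in WT Fasting, 120 to 157 CPM in WT Refed and 113 to 229 CPM in NAMPT LKO livers. In WT Fasting against WT Refed livers, their means were higher for 6 of 6, 3 without overlap, 0 called. Hepatocyte markers were higher there for 6 of 6, 1 without overlap, and endothelial markers for 4 of 5, 2 without overlap, 0 called in either. Over all tested genes, 49.6% did not overlap between WT Fasting and WT Refed livers. The part of these lists in the feeding comparison was not tested. In whole liver, fewer cells of a type and less RNA per cell cannot be told apart.

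Set per length, in TMM-normalized RPKM (CPM for each kilobase of exon), Dgat2 was the most abundant of the 9 mRNAs in every group, at 201 ± 17.6 (SD, n = 2) in WT Refed, 157 ± 11.1 (n = 3) in WT Fasting and 137 ± 27.1 (n = 5) in NAMPT LKO Fasting livers. In WT Refed livers Agpat2, Agpat3, Gpam and Lpin1 followed, at 82.0, 43.1, 26.1 and 17.2 RPKM with no overlap between neighbours in that order. Lpin2 (9.10 RPKM) and Dgat1 (7.16 RPKM) came next, and their ranges were 7.49 to 10.7 and 6.80 to 7.52 RPKM, so these neighbours overlapped. Lpin3 (1.19 RPKM) and Mogat1 (0.80 RPKM) were last. In WT Fasting livers Lpin1 stood between Agpat2 and Agpat3, at 61.1 ± 25.4 RPKM (SD, n = 3), overlapping both (99.1 and 53.7 RPKM), and Lpin2 (29.6 RPKM) overlapped Gpam (30.8 RPKM). NAMPT LKO Fasting livers had the same order of means, and there Dgat2 and Agpat2 overlapped as well.

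Levels were also summed by step, as a description with no test. Lpin1, Lpin2 and Lpin3 together came to 25.3 to 29.8 RPKM in WT Refed livers, to 62.5 to 122 RPKM in WT Fasting livers and to 26.3 to 130 RPKM in NAMPT LKO Fasting livers, the lowest of which was mouse 4, within the WT Refed range. Lpin1 was 59.5% to 71.7% of the lipin sum in WT livers, fed or fasted, and 31.8% to 74.0% in NAMPT LKO livers. In the first step, Gpat4 of the endoplasmic reticulum was 53.2% to 64.1% and Gpam 32.5% to 42.7% of the sum. This sum came to 63.0 to 67.4 RPKM in WT Refed, 80.6 to 90.5 RPKM in WT Fasting and 81.0 to 89.6 RPKM in NAMPT LKO Fasting livers. Gpat4 was not called between the WT groups (log2 fold change 0.45, interval 0.14 to 0.75, edgeR adjusted p = 0.0789), nor was Gpat3 (0.66, interval -0.20 to 1.52, edgeR adjusted p = 0.355). The WT groups overlapped in neither gene, beside 49.6% of all tested genes without overlap. Between the fasted genotypes Gpat3 was higher in NAMPT LKO livers without overlap, beside 3.98% of all tested genes without overlap. It was not called (log2 fold change 0.62, interval -0.07 to 1.30, edgeR adjusted p = 0.836). Gpam, Gpat2 and Gpat4 overlapped there. Agpat2 and Agpat3 made up nearly all of the AGPAT sum, with Agpat2 at 50.5% to 66.1%. DGAT mRNA was 93.8% to 96.6% Dgat2 in every liver and came to 195 to 221 RPKM in WT Refed, 154 to 175 RPKM in WT Fasting and 96.5 to 165 RPKM in NAMPT LKO Fasting livers. These sums are mRNA levels and not enzyme activities.

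**Figure D4:**
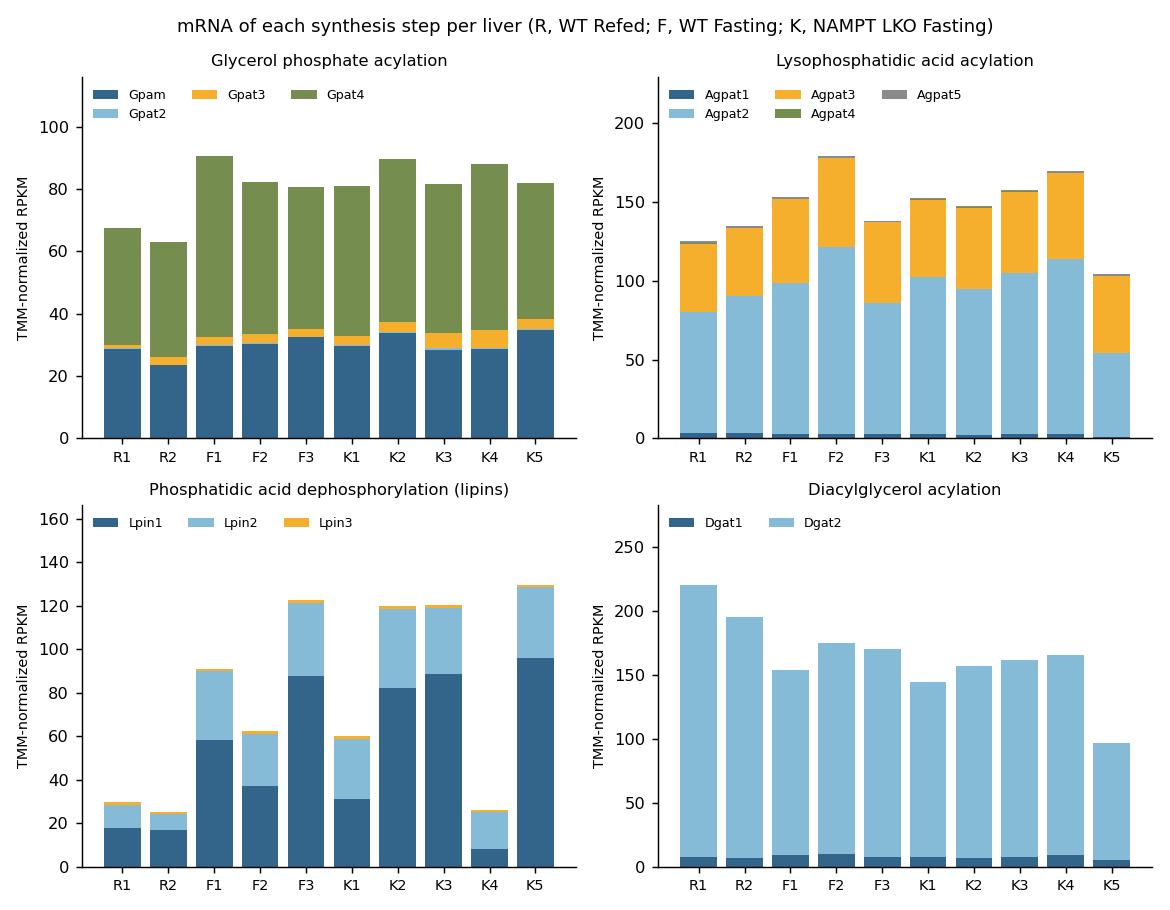
TMM-normalized RPKM (vertical axes, starting at 0) of the genes of each synthesis step, stacked for each liver, with R for WT Refed, F for WT Fasting and K for NAMPT LKO Fasting followed by the replicate number. The lipin sum is 25.3 to 29.8 in WT Refed and 62.5 to 122 in WT Fasting livers, with K4 at 26.3, and the diacylglycerol acylation sum is lowest in K5.

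Of 53 other genes around the pathway, 49 passed the filter. Between WT Fasting and WT Refed livers 2 of these were called higher and 2 lower (8.16%, beside 7.03% of all genes tested), and their median log2 fold change was 0.09. Slc27a2, a fatty acid transporter and acyl-CoA synthetase, was higher in fasting (1159 and 1157 CPM in WT Refed, 1692, 1889 and 1558 CPM in WT Fasting livers, log2 fold change 0.57, edgeR adjusted p = 0.0449). Chkb, choline kinase beta of the phosphatidylcholine branch, was higher too (23.2 and 23.1 CPM against 49.1, 48.6 and 36.9 CPM, log2 fold change 0.96, edgeR adjusted p = 0.00417). In each of these genes the WT groups did not overlap, beside 49.6% of all tested genes without overlap. Acsl4, an acyl-CoA synthetase that favors arachidonate, was lower (74.4 and 81.1 CPM against 38.7, 35.0 and 32.2 CPM, log2 fold change -1.14, edgeR adjusted p = 0.0300). Agpat5, a mitochondrial AGPAT of the same step as Agpat2, was lower (12.7 and 17.3 CPM against 8.49, 10.1 and 8.81 CPM, log2 fold change -0.72, edgeR adjusted p = 0.0386). The 4 genes measured for glycerol phosphate supply gave 0 calls in this comparison with edgeR's quasi-likelihood test and 2 at an unadjusted p under 0.05, beside 22.3% of all genes. The 10 genes listed as the lipin phosphatase and regulators, among them Srebf1, Ppara and Ppargc1a, also gave 0 calls and 3 at an unadjusted p under 0.05, beside the same 22.3%.

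Between the fasted genotypes 0 of the 49 genes were called by edgeR's quasi-likelihood test, 0 had an unadjusted p under 0.05, beside 0.00744% and 6.04% of all genes, and the median log2 fold change was 0.0023. Between NAMPT LKO Fasting and WT Refed livers 4 were higher and 4 lower (16.3%, beside 11.2% of all genes). In this comparison 2 of the 5 bile duct markers were also called higher, as were 1 of 6 stellate and 1 of 5 endothelial cell markers. Cela1, the 1 exocrine pancreas marker tested, was called lower. Cpa1, Pnlip, Ctrb1 and Amy2a5 of the same list had 0 to 2 counts in any liver. The part of these marker lists in the calls was not tested. The 4 pathway genes named above were called there in the same directions. The others were Ppargc1a (6.75 CPM in WT Refed and 22.8 CPM in NAMPT LKO Fasting livers on average, log2 fold change 1.76), the coactivator PGC-1alpha that works with lipin 1, Ppara (111 and 161 CPM, 0.53), a nuclear receptor of fatty acid oxidation, Nr1h3 (144 and 94.4 CPM, -0.60), which encodes the oxysterol receptor LXRalpha, and Pgs1 (11.9 and 6.00 CPM, -0.99), of cardiolipin synthesis. Ppargc1a had a log2 fold change of 1.13 in WT Fasting livers against the same WT Refed livers (edgeR adjusted p = 0.149), and its difference between the fasted genotypes was 0.62 (edgeR adjusted p = 0.836).

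**Figure D5:**
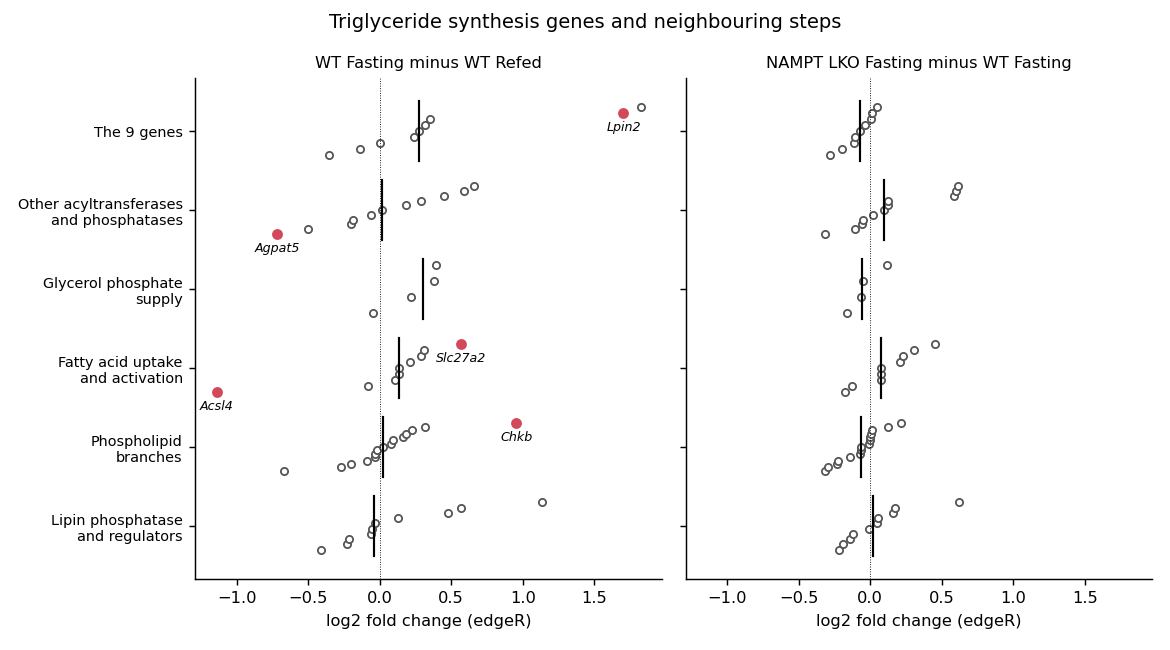
Fitted log2 fold change (horizontal axes) of the 9 genes and of 49 tested genes in 5 lists of neighbouring steps, for WT Fasting against WT Refed livers and for NAMPT LKO Fasting against WT Fasting livers. Each point is 1 gene, filled and named at an adjusted p at or under 0.05, and the bar is the median of the list. Lpin2, Agpat5, Slc27a2, Acsl4 and Chkb are filled on the left and none on the right.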

How the data were processed

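Livers of 10 mice were analysed (2 WT Refed, 3 WT Fasting and 5 NAMPT LKO Fasting, grouped by their labels), with polyadenylated RNA in 1 library each. Per the submitters' processing notes, the authors used bcl2fastq, STAR 2.5.1a and Subread featureCounts 1.4.6-p5 with GRCm38. The authors deposited a count for each of 41388 Ensembl genes. CPM and RPKM values were also deposited by the authors, and were recomputed from the counts and exon lengths without difference. Symbols came from GENCODE mouse release 21 (40254 genes matched).

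A gene entered the test when any library had more than 1 CPM of it. Counts were normalized by TMM and tested in R 4.3.3 with edgeR 4.0.16 (quasi-likelihood test, all 10 libraries in 1 fit with 1 mean per group). P-values were adjusted by Benjamini-Hochberg over 13448 genes and called at 0.05. Alternatives were edgeR's exact test, DESeq2 1.42.0, limma 3.58.1 (voomWithQualityWeights), other normalizations, filters and thresholds, fits of fewer libraries, a replicate block, removal of GC trends and each library left out in turn. The 9 genes and all gene lists were chosen with earlier results of these data known. Every member was described in every library; of the other pathway genes, up to 2 called genes of each list with the lowest p between WT Fasting and WT Refed livers were named, and the rest were chosen after their values were seen. The 3 genes closest to each called member were taken by Pearson correlation of log2 CPM (prior count 2). Marker lists covered 10 cell types. Those whose sums are not given in the results had 5 or fewer genes tested (5 endothelial, 5 erythroid, 1 T and B cell, 1 exocrine pancreas and 0 skeletal muscle), and summed to at most 201, 1386, 2.72, 7.08 and 0.49 CPM in any liver.

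On data simulated for 13448 genes with 200 changed between WT Fasting and WT Refed libraries, the test recovered 34.9% of genes at a log2 fold change of 1 and 87.7% at 2, with 9 false calls. For NAMPT LKO against WT Fasting libraries the shares were 47.7% and 93.0%, with 7 false calls. Simulated counts were drawn independently for each gene and library, with no GC trend and no outlying library such as NAMPT LKO mouse 5. The shares and false calls therefore need not hold for the real data. No 2 libraries of a group agreed within sampling noise. The p-values measure the spread between single mice of this study, whose labels name no batch or cohort.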

Additional observations from a re-analysis of the deposited data

How the results depend on the processing

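Among the 9 genes, 1 was called between WT Fasting and WT Refed livers, and 2 were with DESeq2 (Agpat3 and Lpin2), 4 with voomWithQualityWeights (also Dgat1 and Dgat2), 2 in the fit of only these groups (Lpin1 and Lpin2) and 3 at an unadjusted p under 0.05. Against WT Refed livers, NAMPT LKO Fasting livers gave 1 called gene, and 3 with DESeq2, 3 with voomWithQualityWeights, 2 with the GC trend removed and 4 at an unadjusted p under 0.05. With each library left out in turn the number ran from 0 to 3 in both comparisons, and was 0 throughout between fasted genotypes. Lpin2 was called in 9 of 10 such fits in both comparisons with WT Refed livers, the exception being the fit without WT Refed mouse 2. Of all genes, 946 were called between WT Fasting and WT Refed livers, against 1641 with DESeq2, 3330 with voomWithQualityWeights, 1625 in the fit of only these groups, 1426 with the GC trend removed, 3001 unadjusted, 397 with a log2 change of 1 or more and 106 to 2228 with a library left out. The share called higher, 38.1%, was 26.5% with library size alone. Between fasted genotypes 1 gene was called, against 24 with the exact test, 21 with DESeq2, 2 with library size alone, 17 without a filter, 3 with filterByExpr, 3 with the GC trend removed, 812 unadjusted and 1 to 2 with a library left out. Between NAMPT LKO Fasting and WT Refed livers 1510 were called, 41.4% of them higher (26.3% with library size alone), against 2242 with DESeq2, 2044 with the GC trend removed, 4278 with voomWithQualityWeights, 3509 unadjusted, 491 with a log2 change of 1 or more and 207 to 2836 with a library left out. The causes were not tested.

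Same-numbered WT Fasting and NAMPT LKO livers had correlations of deviation of 0.105, 0.0789 and 0.0970, and pairs of different number -0.165 to 0.0302, so each liver correlated best with its own number, as a hint from the data. The labels name no shared factor and 2 of the 3 were under the limit of 0.1 used here, so the numbers were not taken as pairs. With 1 of these at 0.0970, that limit cannot tell whether the numbers mark pairs. In libraries 1 to 3, 0 genes were called by edgeR with the replicate block and 0 with no replicate block, with fewer libraries than elsewhere. The Nampt log2 fold change was -2.78 with the block (adjusted p = 0.108, edgeR) and -2.87 without it (adjusted p = 0.272, edgeR), and -3.02 to -2.36 with a library left out. Under the block, values that turned sign between fasted genotypes were Gpam -0.012, Agpat2 0.0018, Lpin2 0.097 and Mogat1 -0.060, and with no replicate block in the same libraries Gpam -0.0089, Lpin2 0.093 and Mogat1 -0.091.

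None of the other values that turned sign was called. Between WT Fasting and WT Refed livers, Lpin3 was -0.0030 with DESeq2, -0.013 with voomWithQualityWeights, -0.0027 with RLE size factors, -0.055 with library size alone, -0.012 without a filter, -0.0058 with filterByExpr and -0.065 with the GC trend removed, and -0.18 to 0.19 with a library left out. Mogat1 was 0.0024 with voomWithQualityWeights and -0.47 to 0.27 with a library left out. Between fasted genotypes, Gpam was -0.027 with library size alone and -0.00095 without a filter, Agpat3 was 0.0027 with the GC trend removed, and with voomWithQualityWeights Lpin1 was -0.15, Lpin2 0.047 and Mogat1 -0.072. Lpin1 was -0.065 with library size alone and -0.012 without a filter. With a library left out, Gpam ran from -0.034 to 0.058, Agpat2 from -0.21 to 0.037, Lpin1 from -0.26 to 0.37, Lpin2 from -0.17 to 0.11 and Mogat1 from -0.16 to 0.24. Between NAMPT LKO Fasting and WT Refed livers, Dgat1 was -0.012 with library size alone and -0.027 to 0.16 with a library left out, Lpin3 ran from -0.27 to 0.091 and Mogat1 from -0.41 to 0.32. With 29 to 71 counts, depth limits Mogat1 most.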
